A study of Mus musculus with 10 samples.

Results

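The genes described here are 10 genes of protein folding and quality control in the endoplasmic reticulum (ER): Hspa5, Hsp90b1, Calr, Canx, Pdia3, Pdia4, Pdia6, Xbp1, Herpud1 and Edem1. They were chosen by name from the 24901 rows of a table of nascent RNA in mouse embryonic stem cells, and all 10 passed the filter on low values that left 15161 genes for testing. The study asked how Polycomb Repressive Complex 2, which methylates histone H3, acts on Elongin A, a subunit of a transcription elongation factor. Newly made RNA was labelled with 2 mM bromouridine for 10 min, captured with an antibody and sequenced (Bru-seq). The values are intronic RPKM, intron reads divided by the length of the introns and by the depth of the library, so they follow unspliced RNA rather than the spliced message.

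Each of 5 groups had 2 samples. EloA_WT carried wild-type Elongin A. EloA_K754M and EloA_K754R are named for the replacement of a lysine of Elongin A by methionine or by arginine. CJ7_WT was the wild-type CJ7 line and Eed_null is named for the loss of Eed, the subunit through which that complex binds the histone mark it makes. Every group grew in medium containing LIF, 1 µM PD0325901 and 3 µM CHIR99021, which inhibit MEK and GSK3, on fibroblast feeders that were depleted before use according to one protocol and in feeder-free dishes according to another. The labels do not say whether a line was a single clone, or whether samples of a group came from separate cultures, so p-values here measure only the spread between these samples. They conflict on the lines: the line background is given as CCE28 for EloA_WT and Eed_null and as CJ7 for the other groups, the growth protocol names CJ7 throughout, and the genotype field of Eed_null names Elongin A. CJ7_WT and Eed_null were deposited only as 1 averaged column each, which has no replicate error.

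The ER lumen holds chaperones that bind unfolded chains, lectin chaperones that bind sugar-tagged chains, and disulfide isomerases, while chains that fail to fold are sent back to the cytosol for degradation. When unfolded chains accumulate, the unfolded protein response (UPR) raises these genes through the membrane sensors IRE1, which splices Xbp1 message, and ATF6, whose cleaved fragment enters the nucleus. The remaining sensor, PERK, phosphorylates a translation factor and so favours translation of ATF4, a factor that drives amino acid synthesis, amino acid transport and stress genes such as Trib3. Kinases other than PERK also feed into ATF4, which is why ATF4 targets and ER chaperone genes can be read as separate outputs.

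The promoters of these genes are known for short elements that tie them to the branches of the response, so those letters are shown before the values. In RefSeq promoter windows of GRCm38.p6 (250 bases before to 50 after a gene's start; the RPKM table itself was made on mm9), 4 elements were searched on both strands. ERSE, the ER stress response element, was taken as CCAAT, 9 bases of any kind, then CCACG. ERSE-II was ATTGG, 1 base, then CCACG. The core bound by XBP1 and ATF6 was TGACGTG, and CARE, the composite element bound by ATF4 with C/EBP proteins, was TGATGNAA. ERSE and ERSE-II can share CCACG, and TGACGTG can overlap CCACG read on the other strand, but no match printed here overlaps another.

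All 10 genes had a window. ERSE was present in 5 of them, Hspa5, Hsp90b1 (2 copies), Pdia6, Calr and Canx, against 0.119% of all 32851 windows. ERSE-II was present in Herpud1 alone among the 10, against 0.0365% of windows, and TGACGTG in Hspa5 alone, against 2.01%. CARE was present in Herpud1 alone, against 3.97% of windows. The windows of Xbp1, Pdia3, Pdia4 and Edem1 held none of these letters. The 250 bases before the start of Hspa5 (chr2:34771840-34772089, plus strand) and of Herpud1 (chr8:94386179-94386428, plus strand) are printed whole because these 2 genes differed most between columns. Capitals mark the matches: TGACGTG and then ERSE in Hspa5, and CARE on the opposite strand and then ERSE-II in Herpud1.
Hspa5: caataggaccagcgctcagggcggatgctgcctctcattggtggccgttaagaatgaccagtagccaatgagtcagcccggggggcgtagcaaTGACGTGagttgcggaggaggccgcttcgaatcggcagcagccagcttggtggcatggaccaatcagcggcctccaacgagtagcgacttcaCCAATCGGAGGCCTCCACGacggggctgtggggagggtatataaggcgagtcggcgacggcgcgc
Herpud1: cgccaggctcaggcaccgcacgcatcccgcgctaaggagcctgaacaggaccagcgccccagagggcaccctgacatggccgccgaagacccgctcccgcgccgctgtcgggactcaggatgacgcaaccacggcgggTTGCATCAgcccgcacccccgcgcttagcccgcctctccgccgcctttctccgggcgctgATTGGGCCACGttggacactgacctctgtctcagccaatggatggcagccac

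The ERSE matches of the other 4 genes are shown with 12 bases on each side, in the direction of the gene, so that they can be set beside the one in Hspa5. Those of Hsp90b1 (first copy, chr10:86705626-86705668, minus strand; second copy, chr10:86705521-86705563), Pdia6 (chr12:17266479-17266521, plus strand), Calr (chr8:84847063-84847105, minus strand) and Canx (chr11:50325788-50325830, minus strand) lay between 80 and 212 bases before the start. The match is on the gene's opposite strand in Calr and in the second copy of Hsp90b1.
Hsp90b1, first copy: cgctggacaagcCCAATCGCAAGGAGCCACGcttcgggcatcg
Hsp90b1, second copy: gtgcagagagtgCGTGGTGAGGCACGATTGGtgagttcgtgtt
Pdia6: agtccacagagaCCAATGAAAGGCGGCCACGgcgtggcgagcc
Calr: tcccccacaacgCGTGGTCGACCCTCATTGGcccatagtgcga
Canx: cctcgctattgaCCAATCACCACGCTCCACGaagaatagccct

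For contrast, 31 genes were listed as ATF4 targets (ATF4 itself among them), of which 27 had a promoter window. CARE was in 10 of these 27 windows, Trib3, Chac1 and Asns included, and ERSE, ERSE-II and TGACGTG in 0. The CARE of Chac1, a glutathione-degrading enzyme, and of Asns, asparagine synthetase, are shown beside that of Herpud1; they are at chr2:119351037-119351068 (plus strand) and chr6:7693213-7693244 (minus strand). A match is a description of letters, and its absence from a window says nothing about a factor.
Herpud1 CARE: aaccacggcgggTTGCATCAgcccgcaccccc
Chac1 CARE: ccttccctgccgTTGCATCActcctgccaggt
Asns CARE: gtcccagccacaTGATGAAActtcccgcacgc

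The libraries held 26368657 to 39193529 recovered intronic reads each, and 86756045 and 72388719 in the CJ7_WT and Eed_null averages. These totals are not exact, because recovered reads are known only up to a factor of 2 per gene. Pluripotency genes were expressed in every column, with a summed level over 13 listed genes of 155 to 209 RPKM; limma and limma-voom each called 0 of 13 in any comparison (2 at an unadjusted p under 0.05 in each mutant). Summed over 18 listed fibroblast genes, the level was 6.54 to 7.55 RPKM in EloA_WT, 10.1 to 12.7 in the 4 mutant libraries, 11.7 in CJ7_WT and 14.2 in Eed_null, with no marker at 0 in every column; all 14 fibroblast genes tested had positive changes in both mutants, as had 42.6% (EloA_K754M) and 35.5% (EloA_K754R) of all tested genes. Limma called 1 of the 14, Tnc, in EloA_K754R (log2 change 0.82, adjusted p = 0.0438), and limma-voom called Tnc, Ccdc80 and Col5a2 in each mutant. The part of feeder cells in the results was not tested. Listed primitive endoderm genes summed to 2.64 to 3.37 RPKM in the EloA libraries, 3.93 in CJ7_WT and 5.55 in Eed_null. In bulk RNA, fewer cells of a kind and less RNA per cell cannot be told apart.

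In wild-type Elongin A cells the 3 abundant lumenal chaperones led the group. Mean RPKM in EloA_WT was 28.02 ± 15.6 for Hspa5 (SD, n = 2), 20.4 ± 2.51 for Calr and 15.5 ± 1.61 for Hsp90b1, levels above 98.8%, 98.3% and 97.7% of tested genes. Canx followed at 14.2 ± 0.559 RPKM, then Xbp1 at 6.99 ± 1.72, Pdia6 at 6.05 ± 0.720, Herpud1 at 5.22 ± 0.395, Pdia3 at 4.17 ± 0.0771, Pdia4 at 4.04 ± 0.0962 and Edem1 at 1.31 ± 0.0949. Neighbours in this order overlapped between libraries for Hspa5 with Calr, Hsp90b1 with Canx, and Xbp1 with Pdia6. In the pooled CJ7_WT column the order differed, with Canx first at 9.03 RPKM and Hspa5 next at 7.50. RPKM is scaled per length, so levels can be compared between genes, but the intronic length that the authors used is not given in the sources used here.

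**Figure D1:**
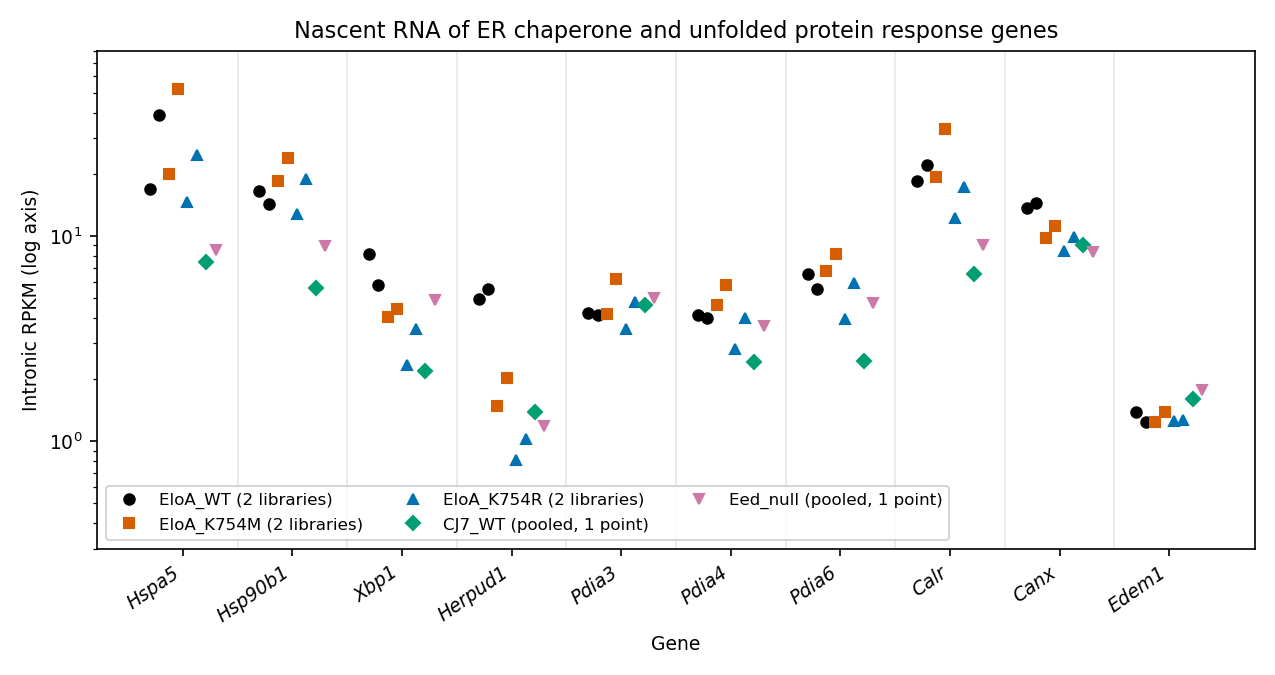
Intronic RPKM (log axis) of the 10 ER genes; each point is 1 library (EloA groups, 2 libraries each) or 1 pooled column (CJ7_WT, Eed_null). Herpud1, Xbp1 and Canx are higher in both EloA_WT libraries than in all 4 mutant libraries, and Hspa5, Hsp90b1 and Calr are higher in all 6 EloA libraries than in both pooled columns. These patterns are shared by 18.8% and 21.9% of tested genes.

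Herpud1 encodes an ER membrane protein of the degradation machinery. In the limma fit without a replicate block it was the only gene of this group called lower, in EloA_K754R and for both mutants together. Limma-voom called Xbp1 and Canx lower there as well. The level of Herpud1 was 4.94 and 5.50 RPKM in the EloA_WT libraries, 1.49 and 2.04 with K754M, and 0.811 and 1.03 with K754R. The 3 groups did not overlap: wild type was highest, EloA_K754M between, EloA_K754R lowest. All 4 mutant libraries lay below both wild-type libraries in 18.8% of tested genes. How many of all tested genes show a separation of 2 libraries from 2 was not counted, here or for the genes below. In EloA_K754R Herpud1 fell by 2.39 on the log2(RPKM + 0.1) scale (SE 0.194, limma adjusted p = 0.0127), 5.24-fold lower. In EloA_K754M the log2 change was -1.53 (SE 0.194, limma adjusted p = 0.0648), short of the threshold of 0.05, which it passed with the replicate number as a block (limma adjusted p = 0.0371; 0.0183 to 0.296 over 15 other settings). For the 2 mutants together against EloA_WT, Herpud1 fell by 1.96 (SE 0.168, limma adjusted p = 0.0211).

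Reading these as counts, Herpud1 was 1 of 10 genes that fell in EloA_K754R, where 2.79% of all tested genes fell, and 1 of 10 for both mutants together, where 1.44% fell. In EloA_K754M 0 of 10 were called by limma, where 0.204% of genes fell (3 had an unadjusted p under 0.05, as had 2334 of 15161 tested genes). Limma-voom called 1 there, Herpud1, and called 217 of all genes lower. The 2 mutants share the EloA_WT libraries, so their changes against wild type are not independent. The call of Herpud1 in EloA_K754R was lost when any library but EloA_K754M replicate 2 was left out, with log2 changes of -2.23 to -2.54. Such fits leave a group with 1 library and 2 residual degrees of freedom, and most calls over all genes were lost as well. Herpud1 reads were few in the mutants, 87 to 204 recovered reads per library against 593 and 631 in EloA_WT, and these recovered numbers are known only up to a factor of 2. The gene overlaps an antisense gene model, Gm15890, and strand handling is not given in the sources used here, so their reads cannot be told apart.

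Edem1, a lectin that helps hand misfolded glycoproteins to degradation, had the flattest profile of the group. It was at 1.38 and 1.25 RPKM in the EloA_WT libraries, 1.25 and 1.40 with K754M, and 1.25 and 1.27 with K754R, so the groups overlapped. Its log2 change was 0.01 in EloA_K754M and -0.05 in EloA_K754R (SE 0.129 for each). Edem1 was also, with Pdia3, 1 of 2 members that were higher in pooled CJ7_WT (1.60 RPKM) than in the EloA_WT mean. Of the 20 other degradation genes listed, 1 fell in EloA_K754R, where 2.79% of all tested genes fell: Derl2, a channel component of retrotranslocation, by 0.81 on the log2 scale (SE 0.135, limma adjusted p = 0.0439). Derl2 is on chromosome 11, where 11.6% of tested genes fell in EloA_K754R. Herpud2, the close relative of Herpud1, had log2 changes of 0.28 in EloA_K754M and 0.27 in EloA_K754R (SE 0.125, limma adjusted p = 0.369 and 0.249).

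Xbp1 encodes the transcription factor made active by IRE1 splicing, and intronic reads cannot show that splicing, which joins exon sequence. Its level was 8.20 and 5.77 RPKM in the EloA_WT libraries, 4.02 and 4.41 with K754M, and 2.36 and 3.52 with K754R. All 4 mutant libraries were below both wild-type libraries, a pattern of 18.8% of tested genes. The 2 mutants did not overlap each other, a separation not counted over all genes. The log2 change was -0.69 in EloA_K754M (SE 0.246, limma adjusted p = 0.272) and -1.23 in EloA_K754R (SE 0.246, limma adjusted p = 0.0591), 2.34-fold lower. Neither passed the test, although limma-voom on recovered reads called the latter (adjusted p = 0.0267; 0.0267 to 0.249 over 14 other settings).

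The sensors upstream of Xbp1 gave no call either. Of 8 tested sensors and membrane-bound factors limma called 0 in any comparison. At an unadjusted p under 0.05 were 2 in EloA_K754M and 1 in EloA_K754R, beside 2334 and 3807 of 15161 tested genes. Limma-voom called 1, Ern1, in EloA_K754M, where it called 217 of all genes lower. Ern1, which encodes IRE1, was at 1.64 and 1.66 RPKM in the EloA_WT libraries, 0.838 and 1.02 with K754M, and 1.23 and 1.15 with K754R. Its log2 change was -0.77 (SE 0.140, limma adjusted p = 0.0982) and -0.43 (adjusted p = 0.134), with all mutant libraries below wild type, a pattern of 18.8% of tested genes. Eif2ak3, which encodes PERK, had log2 changes of 0.03 and -0.19, and Atf6 of 0.10 and 0.12.

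Hspa5 encodes BiP, the main lumenal chaperone, which also holds the UPR sensors inactive. Its level was 17.0 and 39.1 RPKM in the EloA_WT libraries, 20.0 and 52.0 with K754M, and 14.6 and 24.8 with K754R. In every group replicate 2 was higher than replicate 1, by 2.30-, 2.60- and 1.70-fold, and the groups overlapped widely. The log2 change was 0.32 in EloA_K754M and -0.43 in EloA_K754R (SE 0.599 for each, limma adjusted p = 0.845 and 0.698). That SE was the largest of the 10, so its change was the least precisely measured. Herpud1, Calr and Canx were also higher in replicate 2 in all 3 groups. These 4 of 10 stand beside 19.7% of tested genes with that pattern.

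Hsp90b1 encodes GRP94, the ER member of the HSP90 family. It was at 16.6 and 14.3 RPKM in the EloA_WT libraries, 18.5 and 24.1 with K754M, and 12.7 and 19.0 with K754R. Both EloA_K754M libraries were above both wild-type libraries, a separation not counted over all genes, whereas EloA_K754R spanned them. The log2 change was 0.45 in EloA_K754M (SE 0.244, limma adjusted p = 0.458) and 0.01 in EloA_K754R (adjusted p = 0.986). Among 19 further lumenal chaperones and cofactors, limma called 0 in EloA_K754M, and limma-voom called 0. At an unadjusted p under 0.05 were 3 of them there, beside 2334 of 15161 tested genes. In EloA_K754R 1 fell (2.79% of all tested genes and 11.6% of those on its chromosome, 11, did so): Sdf2, by 0.88 (SE 0.153, limma adjusted p = 0.0454). The median log2 change of the 19 genes was -0.01 in EloA_K754M and -0.30 in EloA_K754R.

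Calr and Canx encode calreticulin and calnexin, the soluble and the membrane-bound lectin chaperone. Calr was at 18.6 and 22.2 RPKM in the EloA_WT libraries, 19.3 and 33.1 with K754M, and 12.3 and 17.4 with K754R. Both EloA_K754R libraries were lower than both wild-type libraries, a separation not counted over all genes. The log2 change of -0.47 (SE 0.308) had a limma adjusted p of 0.390. Canx was at 13.8 and 14.5 RPKM in the EloA_WT libraries, 9.76 and 11.2 with K754M, and 8.41 and 9.88 with K754R. All 4 of its mutant libraries were below wild type, a pattern of 18.8% of tested genes. Its log2 change was -0.43 in EloA_K754M (SE 0.144, limma adjusted p = 0.243) and -0.63 in EloA_K754R (adjusted p = 0.0719), and the latter was called by limma-voom (adjusted p = 0.0272) and by limma with the replicate block (adjusted p = 0.0337), with 0.0272 to 0.287 over 14 other settings. For both mutants together Canx was also called with the block (-0.53, limma adjusted p = 0.0424; 0.0369 to 0.358 over the other settings).

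Xbp1, Herpud1 and Canx were thus the 3 of 10 genes whose mutant libraries all lay below wild type, a pattern of 18.8% of tested genes. Xbp1 and Canx are on chromosome 11, as are Ern1, Sdf2, Derl2, P4hb and Sec61g. Apart from Xbp1 and Canx, these were the only genes of the further ER lists called by limma or limma-voom. The 1312 tested genes of that chromosome had a median log2 change of -0.46 in EloA_K754M and -0.56 in EloA_K754R, against -0.06 and -0.14 for all genes. Relative to the chromosome's median, Canx was at 0.02 and -0.06, and Xbp1 at -0.24 and -0.66. Herpud1 is on chromosome 8, whose medians were -0.06 and -0.26. The part of the chromosome in these changes was not tested.

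None of the 3 disulfide isomerases was called in any comparison by limma or limma-voom. Pdia3, which works with the lectin chaperones on glycoproteins, was at 4.23 and 4.12 RPKM in the EloA_WT libraries, 4.15 and 6.19 with K754M, and 3.54 and 4.77 with K754R. Pdia4 was at 4.11 and 3.98 RPKM in the EloA_WT libraries, 4.598 and 5.79 with K754M, and 2.82 and 3.98 with K754R. Pdia6, a further isomerase, was at 6.56 and 5.54 RPKM in the EloA_WT libraries, 6.72 and 8.18 with K754M, and 3.92 and 5.94 with K754R. Both EloA_K754M libraries were above wild type for Pdia4 and Pdia6, a separation not counted over all genes. Each of the 3 genes overlapped wild type in EloA_K754R. Log2 changes were 0.28, 0.34 and 0.29 in EloA_K754M and -0.02, -0.27 and -0.32 in EloA_K754R (SE 0.201 to 0.231), with limma adjusted p between 0.440 and 0.969. Pdia3 and Pdia6 overlap the antisense genes Catsper2 and Atp6v1c2, Pdia4 holds Mir704 on its own strand, and Hsp90b1 overlaps 3 gene models, 1810014B01Rik on the opposite strand and Gm15344 and Gm25745 on its own. Among 16 further genes of disulfide formation, 1 fell in EloA_K754R: P4hb, the prototype isomerase, by 0.98 (SE 0.123, limma adjusted p = 0.0319). It too is on chromosome 11, and the shares that fell are those given for Sdf2. Of 22 genes of translocation and vesicle traffic limma called 0 against wild type. In EloA_K754R 6 had an unadjusted p under 0.05, as had 3807 of 15161 tested genes. Limma-voom called 1 in that comparison, Sec61g (chromosome 11), and called 891 of all genes lower.

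**Figure D2:**
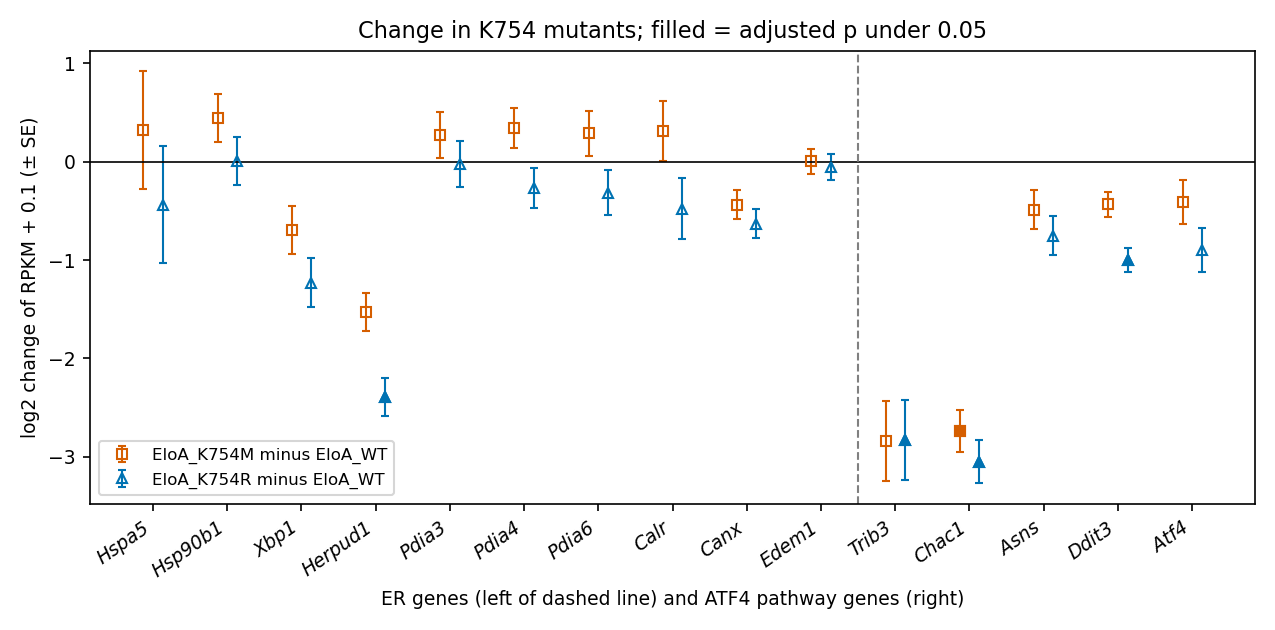
Log2 change of RPKM + 0.1 against EloA_WT (points, with SE bars) for the 10 ER genes and 5 genes of the ATF4 pathway; filled points have a limma adjusted p under 0.05. Herpud1 falls by 2.39 in EloA_K754R beside Trib3 at -2.83, while Hspa5, Hsp90b1, Calr and the Pdia genes lie between -0.47 and 0.45.

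The ATF4 targets give the contrast. Trib3, a pseudokinase and standard ATF4 readout, was at 2.66 and 3.47 RPKM in the EloA_WT libraries, 0.212 and 0.516 with K754M, and 0.481 and 0.236 with K754R. Both mutants were below wild type without overlap, a pattern of 18.8% of tested genes. It fell by 2.83 on the log2 scale in EloA_K754R (SE 0.409, limma adjusted p = 0.0368), and its change in EloA_K754M was -2.84 (adjusted p = 0.0810). Of 30 tested ATF4 targets, 25 fell in EloA_K754R and 7 in EloA_K754M by limma, where 2.79% and 0.204% of all tested genes fell. Limma-voom called 27 and 18 lower, beside 891 and 217 of all genes. In each mutant 30 of 30 changes were negative, with medians of -1.31 and -1.15. The 10 ER genes had medians of -0.38 and 0.28, with 9 and 3 negative. All tested genes had medians of -0.14 and -0.06, and with library medians made equal the ER genes were at -0.18 (7 negative) and 0.41 (3 negative). In 5 equal classes by intronic length (GENCODE M21), the median change in EloA_K754R ran from -0.34 in the shortest to 0.09 in the longest. The longest class held 0 of the ER genes. Relative to their class medians, Herpud1 was at -2.12, Xbp1 at -0.89 and Canx at -0.56. Pdia6 was at -0.14, Calr at -0.13, Hspa5 at -0.09, Pdia4 at -0.08, Edem1 at 0.02, Pdia3 at 0.16 and Hsp90b1 at 0.19. The ATF4 list was written with earlier results of these data known, so its direction is not independent evidence, and no test compared the 2 lists. Leaving out 1 library at a time cost most or all of the 25 limma calls in EloA_K754R, and likewise of the calls over all genes. A group then rests on 1 library. The median log2 change of the ATF4 targets stayed between -1.42 and -1.29 there, with 29 or 30 of 30 negative. With equal library medians and all libraries, 15 of the ATF4 targets fell in EloA_K754R, beside 160 of all genes.

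Atf4 itself was at 17.1 and 12.1 RPKM in the EloA_WT libraries, 9.73 and 12.05 with K754M, and 8.55 and 6.92 with K754R (log2 changes -0.41 and -0.89, limma adjusted p = 0.463 and 0.0839). Ddit3, which encodes the stress factor CHOP, fell by 1.00 in EloA_K754R (SE 0.127, limma adjusted p = 0.0319). Chac1 fell by 2.74 in EloA_K754M and by 3.05 in EloA_K754R (SE 0.216, limma adjusted p = 0.0264 and 0.0127). Within the ER group, Herpud1 had the most negative changes (-1.53 in EloA_K754M and -2.39 in EloA_K754R), the nearest to those of Chac1. The changes of Canx (-0.43 and -0.63) and Xbp1 (-0.69 and -1.23) were nearer to those of Atf4 and Ddit3. The window of Herpud1 holds both CARE and ERSE-II, and the part of either element was not tested. The 21 tested genes outside the group whose windows hold ERSE or ERSE-II had median log2 changes of -0.05 in EloA_K754M and -0.32 in EloA_K754R. Limma called 0 of them, and limma-voom called 1 in EloA_K754R. At an unadjusted p under 0.05 were 4 and 7, beside 2334 and 3807 of 15161 tested genes. The 268 tested genes outside the group with CARE, had medians of -0.10 and -0.21; 6 of them (2.24%) fell in EloA_K754M and 27 (10.1%) in EloA_K754R, against 0.204% and 2.79% of all tested genes. Listed ATF4 targets, chosen with earlier results of these data known, made up 10 of the 268, of which 3 and 9 fell. Of the other 258 genes 3 (1.16%) and 18 (6.98%) fell.

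Between the mutants, all 10 ER genes were higher in EloA_K754M than in EloA_K754R, a direction shared by 60.5% of all tested genes. The log2 differences ran from 0.06 for Edem1 to 0.86 for Herpud1, with a median of 0.57 against 0.09 for all genes. Herpud1 (SE 0.194, limma adjusted p = 0.118), Calr (0.79, adjusted p = 0.257), Hspa5 (0.76, adjusted p = 0.551), Pdia4 and Pdia6 (each 0.61) led. By limma 0 of 10 were called, against 0.29% of tested genes called in either direction, and limma-voom also called 0. An unadjusted p under 0.05 was found for 4 of 10, beside 2806 of 15161 tested genes. With the replicate number as a block in the limma fit, Herpud1 was called here (adjusted p = 0.0440; 0.0440 to 0.417 over 15 other settings). EloA_K754M replicate 2 held the highest level of Hspa5, Hsp90b1, Calr, Pdia3, Pdia4 and Pdia6 among all 8 columns. Without that library the median difference was 0.32 and 9 of 10 were positive; with equal library medians or quantile normalization 9 of 10 were positive as well, Edem1 being the exception. Of the 30 ATF4 targets 22 were higher in EloA_K754M, and limma called 0 (5 at an unadjusted p under 0.05; limma-voom called 1).

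The pooled columns gave a different order of levels. Pooled CJ7_WT was at 7.50 RPKM for Hspa5, 5.61 for Hsp90b1, 6.52 for Calr, 2.46 for Pdia6, 2.43 for Pdia4, 2.21 for Xbp1 and 1.39 for Herpud1. Against the EloA_WT mean, 8 of 10 were lower by 1.5-fold or more, all but Pdia3 and Edem1, where 29% of tested genes were. Ratios of the EloA_WT mean over CJ7_WT were highest at 3.75 for Herpud1, 3.74 for Hspa5, 3.16 for Xbp1 and 3.13 for Calr. The 2 EloA_WT libraries taken singly gave 2.26 and 5.21 for Hspa5 and 3.55 and 3.95 for Herpud1, so the place of Hspa5 depends on the library. The median log2 ratio of CJ7_WT to EloA_WT was -1.36 for the 10 genes, -0.93 for the ATF4 targets and -0.21 for all tested genes. CJ7_WT is a pool without replicates, so no test was made.

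Intron length moved with this ratio. In 5 equal classes of tested genes by intronic length (GENCODE M21), the median log2 ratio of CJ7_WT to EloA_WT was -0.68 in the shortest, then -0.44, -0.28, -0.08, and 0.14 in the longest. Hspa5, Xbp1 and Calr are in the shortest class, with 1349, 1987 and 2205 intronic bases. Relative to the median of its own class, Hspa5 was at -1.21, Herpud1 at -1.40, Hsp90b1 at -1.17 and Calr at -0.95, and the group's median was -0.94. The lines behind the 2 wild types conflict in the labels, and whether line, length or handling accounts for the difference cannot be told apart.

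Seen from CJ7_WT, the ER genes and the ATF4 targets separated in the mutants. In all 4 mutant libraries Hspa5, Hsp90b1, Calr, Pdia4, Pdia6 and Xbp1 were above pooled CJ7_WT, 6 of 10 genes against 36.7% of tested genes. Hspa5, Hsp90b1 and Calr were above both pooled columns in all 6 EloA libraries, 3 of 10 against 21.9%. The 4 mutant libraries lay between 1.94 and 6.93 times the CJ7_WT level for Hspa5, 1.88 and 5.08 times for Calr and 2.27 and 4.30 times for Hsp90b1. Each highest value was that of EloA_K754M replicate 2; the next were 3.32, 2.96 and 3.38. For Herpud1 the 4 libraries lay between 0.583 and 1.47 times CJ7_WT, and for Trib3 between 0.112 and 0.273 times. The median log2 ratio of the mutant mean to CJ7_WT was 0.73 for the ER genes (8 of 10 positive) and -0.71 for the ATF4 targets (23 of 30 negative), against 0.15 for all genes. The share of all tested genes on each side was not counted. Of the 7 ATF4 targets on the positive side 4 passed 1.5-fold; among them Asns lay between 1.85 and 2.77 times CJ7_WT in the mutant libraries and Atf4 between 1.54 and 2.68 times.

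**Figure D3:**
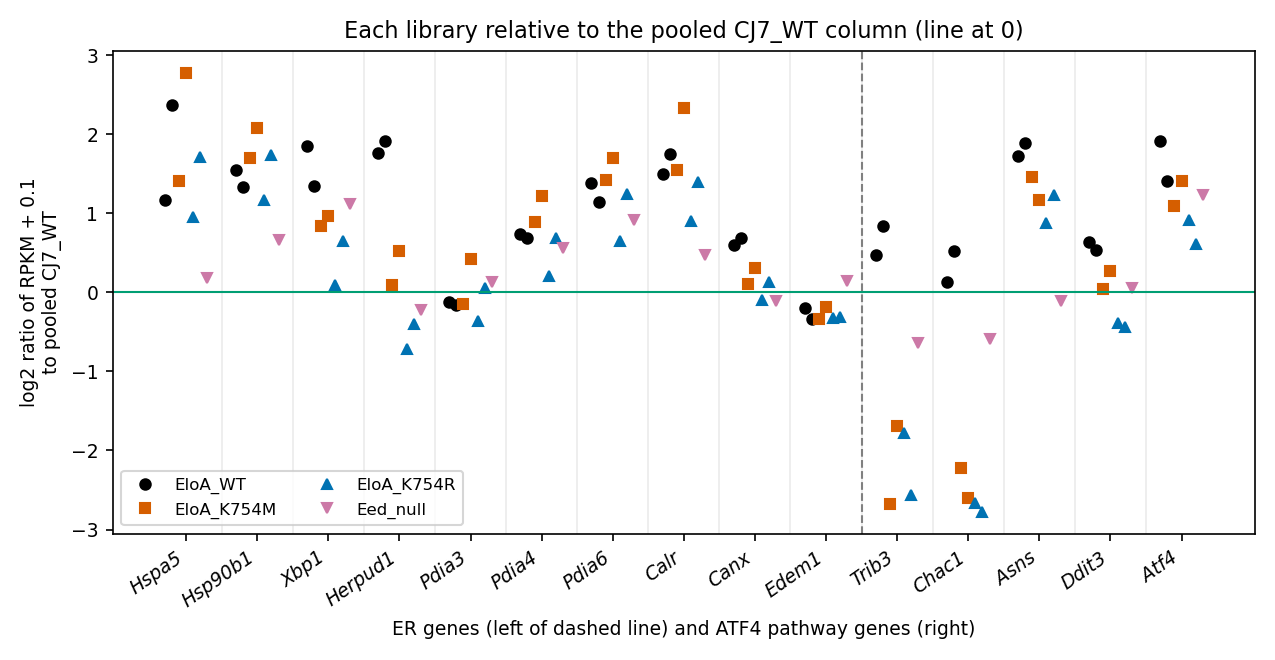
Log2 ratio of RPKM + 0.1 to the pooled CJ7_WT column (green line at 0) for each EloA library and for pooled Eed_null. Hspa5, Hsp90b1, Calr, Pdia4, Pdia6 and Xbp1 lie above the line in all 6 EloA libraries, while Trib3 and Chac1 lie above it in both EloA_WT libraries and below it in all 4 mutant libraries.

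Part of the group was higher in the Eed_null pool than in the CJ7_WT pool. Hsp90b1 was at 8.92 RPKM in Eed_null against 5.61 in CJ7_WT, a ratio of 1.59 (95% interval 1.51 to 1.67, counting error only). Xbp1 was at 4.90 against 2.21 RPKM, a ratio of 2.22 (1.87 to 2.63), and Pdia6 at 4.72 against 2.46, a ratio of 1.92 (1.76 to 2.10). These 3 of 10 passed 1.5-fold, as did 13.7% of tested genes in that direction. Pdia4 (1.49), Calr (1.39) and Hspa5 (1.14) were also higher, whereas Canx (0.929) and Herpud1 (0.847) were lower. Primitive endoderm markers moved both ways in the same comparison. Of 13 rows (Dab2 has 2), 9 were higher in Eed_null, 7 of them by 1.5-fold or more, with Gata4 at 0.365 against 0.123 RPKM and Col4a1 at 1.84 against 0.675. The 3 lower in Eed_null were Ttr at 0.0666 against 0.321, Lama1 at 1.70 against 2.30, and Afp, which was near 0. Foxa2 was at 0 in both. Of 18 fibroblast genes 17 were higher there as well, and the part of either cell type was not tested. The group's median log2 ratio was 0.33, with 8 of 10 positive, against -0.19 for the ATF4 targets (18 of 30 negative) and 0.09 for all genes. How many of all tested genes were higher in Eed_null was not counted. By class of intronic length, the median log2 ratio of tested genes was 0.19, 0.15, 0.07, 0.03 and 0.05 from the shortest to the longest. Trib3 was at 1.17 RPKM in Eed_null and 1.89 in CJ7_WT, a ratio of 0.620 (0.484 to 0.787). The intervals rest on recovered reads taken at the lower of the 2 possible step sizes and leave out the spread between cultures, and no test was made.

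Over the 8 columns the genes differed in profile without falling into clear kinds, given here as a description of 8 points that include 2 pools. Calr, Pdia6, Pdia4, Hspa5 and Hsp90b1 followed the mean of the other 9 genes (Pearson r = 0.91, 0.88, 0.87, 0.79 and 0.77) and not the mean of the ATF4 targets (r = 0.03, -0.01, -0.05, -0.01 and -0.17). Herpud1, Canx and Xbp1 also followed the ATF4 targets, with r = 0.88, 0.75 and 0.66, beside 0.54, 0.78 and 0.70 for the other ER genes. Canx and Xbp1 are on chromosome 11, whose genes were lower in the mutants as a whole. Relative to its median in EloA_K754M and EloA_K754R, Canx was at 0.02 and -0.06, and Xbp1 at -0.24 and -0.66. The part of the chromosome in these profiles was not tested. Pdia3 (0.28) and Edem1 (-0.47) followed neither. The closest pairs were Pdia4 with Pdia6 (0.96), Herpud1 with Canx (0.96), Hspa5 with Calr (0.95) and Hsp90b1 with Calr (0.94). The spread between highest and lowest column was 6.93-fold for Hspa5, 6.78-fold for Herpud1 and 1.42-fold for Edem1.

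**Figure D4:**
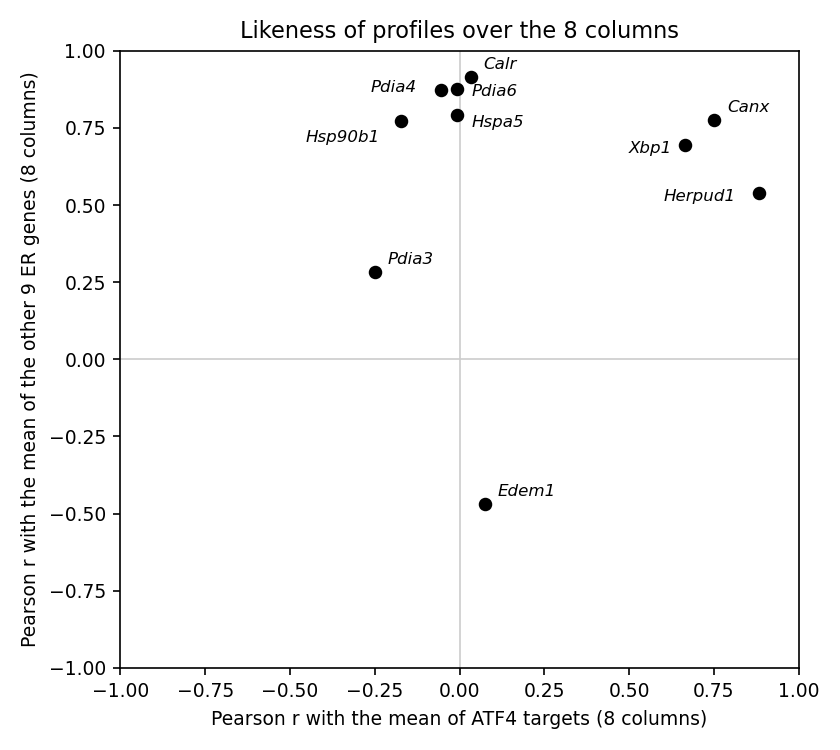
Pearson r over the 8 columns of each ER gene with the mean of the ATF4 targets (x axis) and with the mean of the other 9 ER genes (y axis). Herpud1, Canx and Xbp1 lie to the right, at 0.66 to 0.88; Calr, Pdia6, Pdia4, Hspa5 and Hsp90b1 lie near 0 on the x axis, and Edem1 lies lowest.

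Outside the group, the tested genes most like the mean of the 10 were Rrp8 (r = 0.986), Thap2 (0.980), Cfl1 (0.980), Thnsl1 (0.980), Rpusd4 (0.980) and Wbscr22 (0.977). Cfl1, which encodes the actin-severing protein cofilin, ran from 7.74 RPKM in CJ7_WT to 22.2 in EloA_K754M replicate 2. Those most like Hspa5 were Atp5b (0.986), Rpl14-ps1 (0.982) and Trpm4 (0.982). Atp5b, which encodes a subunit of mitochondrial ATP synthase, was at 31.2 and 49.0 RPKM in the EloA_WT libraries, 26.5 and 66.5 with K754M, 22.9 and 33.6 with K754R, and 11.5 and 13.1 in the CJ7_WT and Eed_null pools. Its high libraries were replicate 2 of each group, as for Hspa5.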

How the data were processed

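Bru-seq RNA of 10 samples was deposited by the authors as 1 table of intronic RPKM with 8 columns, 6 single libraries and 2 averages. Per the submitters' processing notes, reads were aligned with BWA to mm9. Its version, the counter, the gene annotation, the use of strand and the total that scales RPKM were not given in the sources used here. As a test of the values, 20810 of 20817 genes (99.97%) above 0 in 6 or more columns gave whole reads within 0.01 read (0.06 for high values), but the step appears to be 1 read for some genes and 0.5 read for others, so read numbers are known only up to a factor of 2 per gene. The reads were used for depth, counting intervals and limma-voom; RPKM levels do not depend on them.

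Testing covered genes whose mean over the 6 libraries reached 0.1 RPKM, on log2(RPKM + 0.1) with limma 3.58.1 in R 4.3.3 (3 groups in 1 fit, trended variance, two-sided, Benjamini-Hochberg over 15161 genes, threshold 0.05; 3 residual and 2.76 prior degrees of freedom; median SD between replicates 0.195). A fold change on this scale understates changes of low genes. Pools entered no test: ratios of 1.5-fold are descriptions. All 10 members are named, with further genes called or largest in lists of general knowledge; members and lists were chosen with earlier results of these data known. Fits had no block for the replicate number; no label says what it marks, but deviations of same-numbered libraries correlated at 0.166, 0.197 and 0.152 between the groups, so blocked values are given where they change a call. Chromosomes, overlaps and intronic lengths come from GENCODE M21 by gene ID, promoters from RefSeq by symbol.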

Additional observations from a re-analysis of the deposited data

How the results depend on the processing

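Each comparison was repeated under 15 other settings, and the median also relative to the genes' own class of intronic length, a setting chosen after seeing the data. Members called were 0 in EloA_K754M, 1 in EloA_K754R, 1 for both mutants and 0 between mutants. Herpud1 made it 1 in EloA_K754M with a pseudocount of 1 and with limma-voom, which called 3 (Xbp1, Herpud1, Canx) in EloA_K754R and for both mutants. With the replicate block, members called were 1, 2, 2 (Herpud1, Canx) and 1. The block changed no other member's call, and it left 2 residual degrees of freedom. Leaving out 1 library each gave 0 to 0, 0 to 1, 0 to 1 and 0 to 0 members called, and medians of -0.0715 to 0.47 in EloA_K754M, -0.67 to -0.0474 in EloA_K754R, -0.18 to 0.0892 for both and 0.29 to 0.83 between mutants; each group then rests on a lone sample assumed to vary like the others. The median ratio of CJ7_WT to EloA_WT was -1.36 and -0.94 relative to the length class. Of 592 repeats for single genes 532 kept direction and side of the threshold, 10 gained the call, 10 lost it and 40 changed sign, none of them a called value. With equal library medians, which shift EloA_K754R by the median of all genes, Pdia3 (0.17) and Edem1 (0.14) turned positive there, Hspa5 (0.10), Pdia6 (0.15), Calr (0.0792) and Edem1 (0.14) for both mutants, and Edem1 negative between mutants (-0.00588); quantile normalization gave, for the same genes in turn, 0.13 and 0.14, then 0.13, 0.0999, 0.13 and 0.13, and -0.00698. Leaving out 1 library each, sign changes were seen in EloA_K754M for Hspa5 (-0.37 to 1.01), Edem1 (-0.0689 to 0.0815), Pdia3 (-0.00752 to 0.56) and Calr (-0.0741 to 0.70); in EloA_K754R for Edem1 (-0.12 to 0.0148), Hspa5 (-1.03 to 0.17), Hsp90b1 (-0.27 to 0.30) and Pdia3 (-0.23 to 0.19); for both mutants for Pdia6 (-0.16 to 0.13), Edem1 (-0.0921 to 0.0448), Hspa5 (-0.66 to 0.54), Calr (-0.27 to 0.11), Pdia3 (-0.0142 to 0.27) and Pdia4 (-0.0811 to 0.16); and between mutants for Edem1 (-0.0152 to 0.14). All genes called numbered 33, 527, 239 and 44 (EloA_K754M, EloA_K754R, both, between mutants), 227, 1777, 1046 and 355 with the block, 319, 1292, 874 and 444 with limma-voom, 16, 160, 50 and 26 without the filter, 16, 324, 40 and 68 after equalizing medians, 17, 333, 51 and 90 after quantile normalization, and 30, 204, 65 and 74 without chromosome 11; of those called in EloA_K754R 80.3% were lower, and 49.4% after equalizing medians (91.2% and 80% for both mutants). The cause was not tested.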
